A study of Bos taurus with 15 samples.

Results

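Genes of the cell cycle and of DNA replication were described in the bovine endometrium of early pregnancy. Their probes were the 97 of 15208 probes other than controls whose description or accession text held 'cyclin', 'cell division cycle', 'minichromosome maintenance', 'centromere protein', 'kinesin family', 'aurora kinase', 'polo-like kinase', 'ribonucleotide reductase' or 'replication factor', in any case of letters. Of these, 91 had a signal well above background in 3 or more of 15 arrays and were kept, with 89 distinct gene names. The 6 probes not kept were those of CCNT2, CENPN, CNNM1 and PTGIR and both probes of CENPE. By gene name alone, the kept probes were put into DNA replication (12 of 12), mitosis (24 of 27), G1 cyclins, their kinases and inhibitors (12 of 12), cyclins and kinases of transcription and other processes (13 of 15), kinesins outside mitosis (12 of 12) and other text matches (18 of 19). The last class holds matches that were put in none of the others. Some share only a word or its letters with the cell cycle, such as PTGIS, the prostacyclin synthase. Others are linked to it by name, such as CINP, a CDK2-interacting protein, and CCNB1IP1, which binds cyclin B1.

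Labeled RNA of the caruncular endometrium, the part of the uterine lining where the placenta later attaches, was hybridized to a one-color Agilent array of bovine probes. The tissue came from Japanese Black cows, 1 cow per array, and from the uterine horn on the side of the corpus luteum. The groups were non-pregnant cows on day 15 (NP15, 4 arrays) and day 18 (NP18, 4 arrays), which the labels call days of the estrous cycle. The others were pregnant cows on day 15 (P15, 3 arrays) and day 18 (P18, 4 arrays). The study's methods give 4 animals per stage. The day of insemination counted as day 1, and a cow was called pregnant when trophoblast was seen in the uterus. The pregnant cows thus carried a conceptus next to the sampled surface.

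A dividing cell passes G1, copies its DNA in S phase and divides in M phase. D-type and E-type cyclins drive the passage through G1 with CDK4, CDK6 and CDK2, and the INK4 and KIP proteins inhibit them. In S phase, the MCM helicase opens the DNA, replication factor C loads the sliding clamp, and ribonucleotide reductase makes the nucleotides. Cyclins A and B with CDK1 start mitosis, aurora and polo-like kinases shape the spindle, centromere proteins hold the chromosomes on it, and the anaphase-promoting complex ends it. Transcripts of the mitotic genes peak late in the cycle. In ruminants, the endometrium receives the elongating conceptus in these days, and its trophoblast cells proliferate quickly.

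Each probe is an oligonucleotide of 60 bases, and those on which the results below turn most are printed as the scanner files list them, each with the gene its annotation names.
CCNB2: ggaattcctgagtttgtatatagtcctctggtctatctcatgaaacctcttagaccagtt
AURKA: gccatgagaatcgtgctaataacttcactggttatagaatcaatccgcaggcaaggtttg
CENPF: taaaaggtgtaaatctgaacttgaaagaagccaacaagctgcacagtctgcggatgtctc
INCENP: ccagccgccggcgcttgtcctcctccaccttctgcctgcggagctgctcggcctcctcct
RRM1: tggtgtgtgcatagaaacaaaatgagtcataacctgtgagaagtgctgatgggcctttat
RFC5: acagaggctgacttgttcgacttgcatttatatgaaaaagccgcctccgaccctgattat
CCND3: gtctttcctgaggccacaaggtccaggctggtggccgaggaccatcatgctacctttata
CDKN2B: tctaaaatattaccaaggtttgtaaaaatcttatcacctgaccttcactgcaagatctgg
KIF5C: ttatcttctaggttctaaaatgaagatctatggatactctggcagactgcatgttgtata
CDCA7, both probes: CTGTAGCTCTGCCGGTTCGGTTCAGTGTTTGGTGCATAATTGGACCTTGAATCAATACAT
Both CDCA7 probes hold all 60 bases in common, which the capitals mark, so they measured the same sequence. Their log2 signals had a correlation of 0.98 over the 15 arrays. The probes of the mitotic cyclins CCNB1 and CCNB2 share no run longer than 5 bases, nor do those of the kinesins KIF5A and KIF5C or the 2 probes of PLK3. Of the 91 kept probes, 32 were designed on a RefSeq transcript and 59 on an EST or another mRNA. The strand of a probe relative to its transcript was not tested. The INCENP probe, designed on an EST, may be listed on the strand opposite to the coding one, in which case labeled INCENP RNA would not bind it. Median GC content was 42.5% in the replication probes and 43.3% in the mitosis probes, and it was 43.3% in all 13164 probes tested.

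A signal is given below in array medians, which is the processed intensity over its own array's median, and levels are compared only within a probe. The median of an array was from 315 to 838 intensity units, and 65.6 to 88.3% of the probes stood well above background. Differences are on the log2 scale, with the standard error (SE), from limma fitted over all 15 arrays, and p values are adjusted over the 13164 probes well above background in 3 or more arrays. A probe passed the test with an adjusted p under 0.05 together with a fold above 2. These p values measure the spread between cows. Each of the groups P15, NP18 and P18 was scanned on 1 day of its own, so scan day and group cannot be told apart. Once scan day entered as a random block, no member passed the test in any comparison except the INCENP probe between NP18 and NP15, as given below. Over all 13164 probes, 49 passed under this block between P18 and NP18 and 54 between NP18 and NP15. In every other comparison, 0 of all probes passed, so the loss was not particular to the members. Because whole tissue was used, a change in the number of dividing cells and a change of RNA per cell cannot be told apart.

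The tissue carried the markers of endometrium. All 8 stromal markers with a probe (VIM, COL1A1 and others) and all 6 epithelial markers with a probe (KRT8, EPCAM and others) stood well above background in every array. Between P15 and P18 their sums did not overlap, as the epithelial one was 102.6 to 137 array medians in P15 and 226 to 324 in P18, and the stromal one 1143 to 1261 and 662 to 828. Among the 6 epithelial markers, EPCAM passed as higher in P18 than in P15 and CDH1 as lower, and 3 of the 8 stromal markers passed as lower (VIM, COL1A1 and COL3A1). The smooth muscle markers ACTA2, DES and CNN1 and the endothelial marker PECAM1 also passed as lower there, and FOXA2 of uterine glands and AIF1 of leukocytes as higher. Between P18 and NP18, COL1A1, ESR1, ACTA2, CNN1 and PECAM1 passed as lower, and no epithelial or leukocyte marker passed. Of 24 trophoblast markers, 17 had a probe, and their summed signal was 1.41 to 2.16 array medians in NP15, 1.58 to 3.10 in P15 and 1.65 to 7.01 in NP18. In the 4 P18 arrays, it was 6.68, 147, 89.2 and 606, so in 3 of the 4 it was far above every other array. Of 12 tested, IFNT2 (interferon tau), TKDP1, TKDP4, PAG2, PAG8 and PAG11 passed as higher in P18 than in NP18, and ELF5 as lower. KRT7 and TFAP2C had lower values without passing. In NP18, the sum rested mostly on BCL2L15 (0.322 to 4.49), KRT7 (0.0376 to 1.90), TFAP2C (0.495 to 1.53) and ELF5 (0.188 to 1.40). BCL2L15 was at 2.83 to 8.97 in P18. TKDP4, a trophoblast protein of ruminants, was well above background in all 4 P18 arrays, at 0.271 to 306.6 array medians, and at most 0.0849 in the other groups. It was also well above background in 1 NP15 and 1 P15 array, where those groups reached at most 0.0612 and 0.0401. The interferon tau probe was well above background in 3 P18 arrays and in 1 NP15 array, but not in any P15 or NP18 array. Its NP15 signal was at most 0.0471 array medians. Summed signal of 11 leukocyte markers was 23.8, 27.3, 152 and 39.3 in P18 and 13.1 to 31.8 in the other groups, and GZMB made up 125 of the 152. Among the non-pregnant arrays of day 18, the last stood apart, with a summed signal of 4 smooth muscle markers of 414 against 95.5 to 253 in the other 3, and it was also high for many mitotic genes. The part of these cells in the results below was not tested beyond the values given beside them.

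Pregnancy and day moved few members (the plot of log2 differences by class). Between P15 and NP15, 1 of 91 members passed the test, or 1.10%, beside 0.798% of all probes tested. Between P18 and NP18, 7 members passed, or 7.69%, beside 5.75% of all probes. The 7 count MRRF, a match of letters alone that was well above background in no day 18 array. The pregnancy effect differed between the days for 3 members, or 3.30%, beside 2.72% of all probes. Within the non-pregnant cows, 3 members differed between day 18 and day 15, all lower on day 18, beside 7.16% of all probes. Within the pregnant cows, 13 members differed, 11 higher and 2 lower on day 18, which is 14.3% beside 11.9% of all probes. These shares of all members lay near those of all probes or below them. In the number of members whose groups did not overlap, the picture was similar, with 17, 15, 11 and 42 of 91 for P15 against NP15, P18 against NP18, NP18 against NP15 and P18 against P15, beside 15.6, 16.3, 13.1 and 42.9% of all probes. In these comparisons, P15 against NP15 and P18 against P15 share the P15 arrays, and P18 against NP18 and P18 against P15 share the P18 arrays.

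Mitosis and replication had different values in the comparison of the pregnant groups. Of 24 mitosis probes, 21 were higher in P18 than in P15, with a median difference of 0.77, and 7 passed the test as higher and none as lower. That is 87.5% with a higher value and 29.2% passed as higher, beside 56.9 and 7.58% of all probes. The 24 count 2 identical probes of CDCA7, 2 probes of PLK3 and the INCENP probe. CDCA7 was placed there by its CDCA name alone, and PLK3, a kinase of stress and checkpoint responses, as a polo-like kinase. The 7 count CENPA, which was near background, with 1 P15 and 1 P18 array well above it. Of 12 replication probes, 9 (75%) were higher, with a median difference of 0.11, and 1 passed. In this comparison the epithelial marker sum was also higher, by its ranges above, and the stromal sum lower, and their part in the mitosis values was not tested. The median over all probes tested was 0.12, so the mitosis median lay 0.65 above it and the replication median 0.01 below it. With each array scaled to its 75th percentile, the median over all probes became -0.18, the mitosis median 0.47 and the replication median -0.19, at the same distances from it. Under this scaling, 17 of 24 mitosis probes and 3 of 12 replication probes were higher, and 4 mitosis probes and no replication probe passed. Between P18 and NP18, 21 of 24 mitosis probes were higher (87.5%, beside 55.7% of all probes), with a median of 0.47 (0.07 over all probes). Of them, 1 passed as higher and 1 as lower, beside 3.65 and 2.1% of all probes. In the same comparison, the replication median was 0.18 and no replication probe passed, while 3 had an unadjusted p under 0.05 (25% of them, beside 24.1% of all probes).

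**Figure D1:**
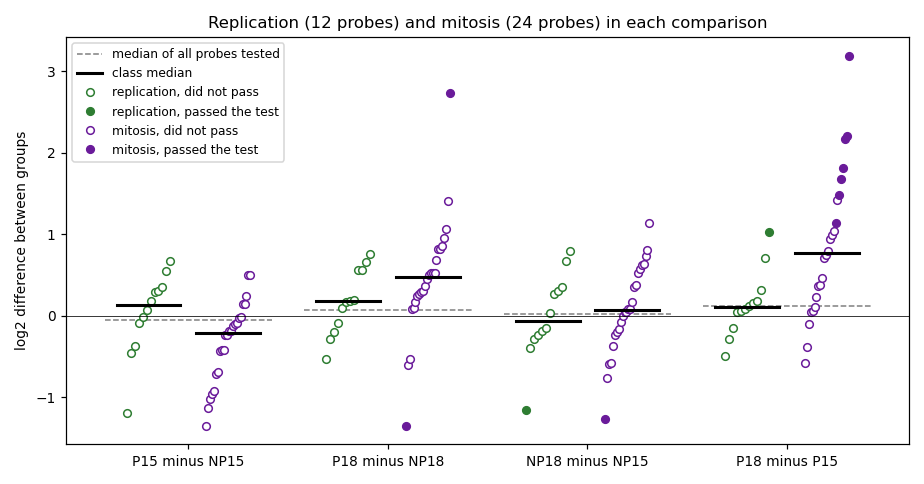
Log2 difference between groups for the 12 replication probes (green) and the 24 mitosis probes (purple) in 4 comparisons, with 1 point per probe, filled where it passed the test, a black line at the class median and a dashed line at the median of all probes tested. The mitosis points between P18 and P15 reach 3.19 and have a median of 0.77, while the replication points there have a median of 0.11.

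On day 15, the classes stood the other way. The median of the mitosis probes between P15 and NP15 was -0.21, with 5 of 24 higher in P15, and that of the replication probes was 0.13, with 7 of 12 higher. Of all probes, 45.1% were higher in P15, with a median of -0.06. No mitosis or replication probe passed the test there, and 5 and 3 probes had an unadjusted p under 0.05 (20.8 and 25%, beside 14.9% of all probes). Among the non-pregnant cows, the medians between day 18 and day 15 were 0.07 for mitosis and -0.06 for replication.

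The cyclins that start mitosis were led by CCNB2, cyclin B2. Signal of CCNB2 was 0.447, 0.20, 0.371 and 0.236 array medians in the NP15 arrays, 0.24, 0.377 and 0.239 in P15, 0.37, 0.317, 0.186 and 0.97 in NP18 and 1.55, 2.93, 3.73 and 2.49 in P18. All 4 P18 arrays lay above all 11 others, and the other groups overlapped each other. CCNB2 was higher in P18 than in NP18 (log2 difference of 2.74, SE 0.44, adjusted p = 0.00201, or 6.67-fold) and than in P15 (log2 difference of 3.19, SE 0.47, adjusted p = 0.00132, or 9.14-fold). Its pregnancy effect was larger on day 18 than on day 15 (log2 difference of 2.83, SE 0.64, adjusted p = 0.033), but this call was lost on leaving out any of 9 arrays, with an adjusted p of up to 0.105. In the P18 array with a trophoblast sum of 6.68, CCNB2 was 1.55, above all arrays of the other groups. That sum lay within the range of NP18, but TKDP4 was well above background in this array too. It was at least 0.271 array medians in P18 and at most 0.0849 in NP18. The part of trophoblast in the CCNB2 signal was not tested. Both calls between P18 and the other groups held on leaving out any 1 array. An exact two-sided permutation test gave p = 0.0286 between P18 and NP18, the smallest that 4 arrays against 4 allow, while 4 against 3 cannot go below 0.0571.

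CDK1, the kinase that binds these cyclins, was higher in P18 than in P15. The CDK1 signal was 0.442, 0.273, 0.461 and 0.721 array medians in the NP15 arrays, 0.231, 0.274 and 0.319 in P15, 0.267, 0.401, 0.371 and 0.587 in NP18 and 0.332, 0.802, 1.0 and 1.24 in P18. The groups P18 and P15 did not overlap, but the lowest P18 array lay only just above the highest P15 array and inside the NP18 range. The difference from P15 was 1.48 (SE 0.42, adjusted p = 0.0298), and it lost the call on leaving out any P15 array or any P18 array but the first, with an adjusted p of up to 0.108. Against NP18 it was 0.96 (SE 0.39, adjusted p = 0.153).

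CCNA2, cyclin A2 of S phase and mitotic entry, had the same order of groups without passing the test. For CCNA2, it was 0.218, 0.17, 0.266 and 0.375 array medians in the NP15 arrays, 0.198, 0.219 and 0.27 in P15, 0.287, 0.176, 0.193 and 0.378 in NP18 and 0.238, 0.439, 0.579 and 0.593 in P18. The lowest P18 array lay within the range of P15. Its difference between P18 and P15 was 0.94 (SE 0.36, adjusted p = 0.0892). CCNB1, cyclin B1, went another way. CCNB1 measured 4.0, 10.2, 0.645 and 2.28 array medians in the NP15 arrays, 1.25, 1.47 and 1.12 in P15, 4.65, 3.62, 3.37 and 10.0 in NP18 and 2.88, 3.52, 3.34 and 3.89 in P18. Its highest arrays were the second NP15 array and the last NP18 array, and its 3 P15 arrays were below all P18 and NP18 arrays. CCNB1 passed the test in no comparison (log2 difference of 1.42, SE 0.65, adjusted p = 0.148 between P18 and P15).

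Among the mitotic kinases, AURKA, which acts at centrosomes and spindle poles, was higher in P18 than in P15. Signal of AURKA was 0.518, 0.465, 0.297 and 0.457 array medians in the NP15 arrays, 0.229, 0.29 and 0.277 in P15, 0.365, 0.322, 0.323 and 0.706 in NP18 and 0.548, 0.749, 0.899 and 1.4 in P18. The P18 arrays lay above all P15 and NP15 arrays, and the last NP18 array lay inside their range. Between P18 and P15, the difference was 1.68 (SE 0.34, adjusted p = 0.00678), or 3.21-fold, and it held on leaving out any 1 array. Between P18 and NP18, it was 1.07 (SE 0.31, adjusted p = 0.0555). AURKB, the kinase of the chromosomal passenger complex, passed in no comparison. The AURKB signal was 1.12, 0.487, 0.672 and 0.636 array medians in the NP15 arrays, 0.609, 0.399 and 0.566 in P15, 0.677, 0.535, 0.324 and 1.27 in NP18 and 0.525, 0.942, 0.864 and 1.5 in P18. Its groups overlapped, and its highest arrays were the last of P18 and the last of NP18. Between P18 and P15, its difference was 0.79 (SE 0.43, adjusted p = 0.22).

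INCENP, the scaffold that holds AURKB in the chromosomal passenger complex, had a pattern of its own, with the limit that its probe may lie on the opposite strand and that what it measured was not tested. For INCENP, it was 0.96, 1.27, 1.09 and 0.969 array medians in the NP15 arrays, 0.487, 0.629 and 0.579 in P15, 0.396, 0.456, 0.422 and 0.506 in NP18 and 0.583, 0.554, 0.621 and 0.666 in P18. All NP15 arrays lay above all 11 others, and the P18 arrays lay above the NP18 arrays. The INCENP probe was lower in NP18 than in NP15 (log2 difference of -1.27, SE 0.17, adjusted p = 0.000963, or 2.41-fold lower). This was the only call on members that held once the scan day was a random block (adjusted p = 0.0468), beside 54 of all 13164 probes there. In P15 it was lower than in NP15 at an adjusted p of 0.0359, but by less than 2-fold (1.9-fold, log2 difference -0.92). The pregnancy effect differed between the days (log2 difference of 1.37, SE 0.26, adjusted p = 0.0143), and this call was lost without the first P15 array (adjusted p = 0.0625).

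The polo-like kinases did not follow CCNB2. PLK1 measured 8.06, 9.91, 7.19 and 17.6 array medians in the NP15 arrays, 7.99, 9.02 and 9.44 in P15, 9.13, 5.93, 8.38 and 7.98 in NP18 and 8.72, 6.55, 8.09 and 9.95 in P18. These are the values of PLK1, the kinase of mitotic entry and exit, whose groups overlapped throughout. Its difference between P18 and P15 was -0.10 (SE 0.28, adjusted p = 0.85). PLK3, a kinase of stress and checkpoint responses, had 2 probes. The probe ABR6066 had 0.239, 0.349, 0.152 and 0.185 array medians in the NP15 arrays, 0.165, 0.203 and 0.197 in P15, 0.266, 0.26, 0.54 and 0.482 in NP18 and 0.236, 0.159, 0.0861 and 0.134 in P18. Its NP18 arrays all lay above its P18 arrays, and it was lower in P18 than in NP18 (log2 difference of -1.35, SE 0.34, adjusted p = 0.0315), a call that was lost without any of 5 of the day 18 arrays. The other probe had a difference of -0.60 (SE 0.26, adjusted p = 0.181) there, in the same direction, and the log2 signals of both had a correlation of 0.67 over the 15 arrays.

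**Figure D2:**
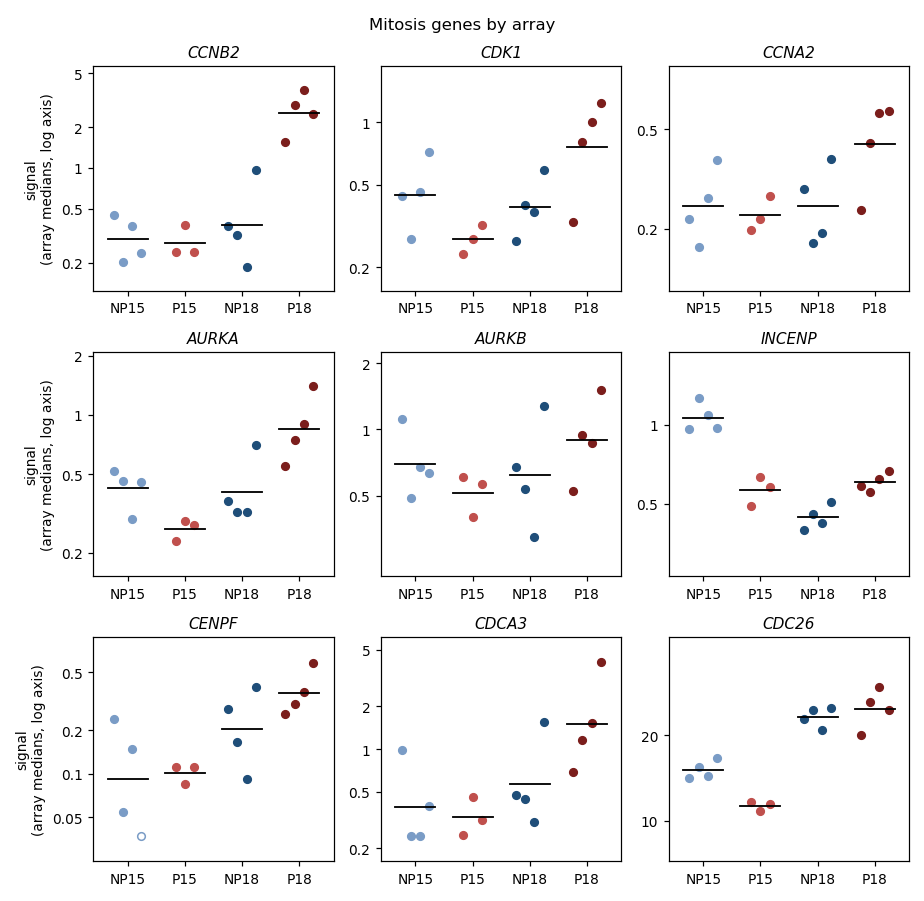
Signal of 9 mitosis genes in each array, in array medians on a log axis, by group, with open points for arrays not well above background and a line at the group mean of log2 values. The P18 points of CCNB2, from 1.55 to 3.73, lie above all others, while those of AURKA, CDK1 and CDCA3 overlap the NP18 points.

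At the kinetochore, where spindle fibers grip the chromosomes, CENPF was higher in P18 than in P15. Signal of CENPF was 0.24, 0.0545, 0.147 and 0.0374 array medians in the NP15 arrays, 0.112, 0.0853 and 0.111 in P15, 0.282, 0.165, 0.0927 and 0.395 in NP18 and 0.258, 0.302, 0.369 and 0.586 in P18. The P18 arrays lay above the P15 arrays and overlapped NP18. The difference was 1.82 (SE 0.59, adjusted p = 0.0478) against P15 and 0.82 (SE 0.54, adjusted p = 0.381) against NP18. The call against P15 was lost on leaving out any of 9 arrays, with an adjusted p of up to 0.135. CENPA, the histone variant that marks centromeres, was near background. The CENPA signal was 0.0487, 0.0504, 0.0659 and 0.0516 array medians in the NP15 arrays, 0.0193, 0.0105 and 0.0464 in P15, 0.0543, 0.0445, 0.104 and 0.054 in NP18 and 0.0933, 0.0971, 0.0903 and 0.112 in P18. It was well above background in 1 of 3 P15 and 1 of 4 P18 arrays, and its difference between them was 2.21 (SE 0.40, adjusted p = 0.00387). Both groups rest on dim spots there. A CENPE probe that was well above background in no array lay at 0.00398 to 0.0106 array medians in P15 and 0.0207 to 0.0367 in P18. The floor itself thus lay higher in P18, and the size of the CENPA difference is not a measured fold. CENPC, CENPH and CENPL, which sit at the inner kinetochore, passed in no comparison, with differences of 0.23, -0.58 and 0.46 between P18 and P15.

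Of 3 subunits of the anaphase-promoting complex, CDC26 was higher in P18 than in P15. For CDC26, it was 14.1, 15.4, 14.4 and 16.6 array medians in the NP15 arrays, 11.6, 10.8 and 11.4 in P15, 22.7, 24.4, 20.8 and 24.9 in NP18 and 20.1, 26.1, 29.5 and 24.5 in P18. Day 18 arrays of both groups lay above all day 15 arrays, and the P15 arrays lay below the NP15 arrays. Between P18 and P15, the difference was 1.14 (SE 0.18, adjusted p = 0.0021), which held on leaving out any 1 array, and between P18 and NP18 it was 0.10 (SE 0.17, adjusted p = 0.767). Between NP18 and NP15, it was 0.62 (SE 0.17, adjusted p = 0.0323), a difference of less than 2-fold. CDC23 and CDC27, the other subunits, had differences of 0.36 and 0.38 between P18 and P15 and passed in no comparison.

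CDCA3, which helps cells to enter mitosis, was higher in P18 than in P15. CDCA3 measured 0.992, 0.244, 0.246 and 0.397 array medians in the NP15 arrays, 0.249, 0.463 and 0.317 in P15, 0.478, 0.445, 0.307 and 1.55 in NP18 and 0.687, 1.17, 1.53 and 4.11 in P18. The P18 arrays spread widely, from 0.687 to 4.11, and the last NP18 array stood inside their range. The difference was 2.18 (SE 0.64, adjusted p = 0.0341) against P15 and 1.41 (SE 0.60, adjusted p = 0.165) against NP18. The call against P15 was lost on leaving out any P15 array or any P18 array but the first, with an adjusted p of up to 0.123. KIF20A, a kinesin of cytokinesis, passed in no comparison. Signal of KIF20A was 0.31, 0.0845, 0.152 and 0.0473 array medians in the NP15 arrays, 0.102, 0.102 and 0.128 in P15, 0.137, 0.068, 0.0866 and 0.268 in NP18 and 0.136, 0.173, 0.252 and 0.388 in P18. Its groups overlapped in the comparison of P18 with NP18, and it was well above background in 2 of the 4 NP18 arrays. CDCA2 and CDCA5, which act on chromatin and on sister chromatid cohesion, had differences of 1.04 and 0.04 between P18 and P15 and did not pass. Both CDCA7 probes had 0.74 and 0.71 there, and -0.96 and -1.03 between P15 and NP15, and passed in no comparison.

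The members that passed between P18 and P15 also differed among the P18 arrays. AURKA, CDCA3, CENPF and CDK1 were lowest in the first P18 array and highest in the last, whose trophoblast sums were 6.68 and 606. All 4 were higher in the third array, with a sum of 89.2, than in the second, with a sum of 147. RRM1 had the same ends but was higher in the second than in the third. CCNB2 was lowest in the first as well (1.55), but highest in the third (3.73), and so was CDC26. CENPA was lowest in the third and highest in the last. In the first P18 array, with a trophoblast sum within the NP18 range but TKDP4 above all arrays of the other groups, AURKA was 0.548 and CENPF 0.258, above all P15 arrays (at most 0.290 and 0.112), while CDK1 was 0.332 beside at most 0.319 in P15. Without the last P18 array, the differences between P18 and P15 were 1.44 (adjusted p = 0.017) for AURKA, 1.69 (adjusted p = 0.0835) for CDCA3, 1.59 (adjusted p = 0.111) for CENPF and 1.24 (adjusted p = 0.076) for CDK1, and only AURKA of these 4 kept the call.

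The last NP18 array had high values of the mitosis genes too. Without it, the median of the mitosis probes between P18 and NP18 was 0.54, CCNB2 had a difference of 3.19 (adjusted p = 0.000303), and PLK3 (probe ABR6066) lost its call.

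DNA replication genes moved little. The MCM helicase had 5 of its subunits among the members. The MCM4 signal was 3.93, 5.37, 3.8 and 4.65 array medians in the NP15 arrays, 7.46, 5.17 and 6.83 in P15, 4.47, 6.04, 5.4 and 5.98 in NP18 and 6.94, 6.67, 10.8 and 8.22 in P18. This is MCM4, whose P18 arrays lay above all NP18 arrays and whose P15 arrays overlapped NP15. Its differences were 0.56 (SE 0.21, adjusted p = 0.129) between P18 and NP18 and 0.55 (SE 0.23, adjusted p = 0.284) between P15 and NP15. MCM5 had the following values. For MCM5, it was 4.13, 3.55, 3.33 and 1.7 array medians in the NP15 arrays, 5.11, 4.89 and 4.52 in P15, 3.74, 4.98, 4.43 and 6.46 in NP18 and 5.08, 4.5, 5.05 and 7.72 in P18. All P15 arrays lay above all NP15 arrays, but the difference of 0.68 (SE 0.30, adjusted p = 0.308) did not pass.

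For MCM6, the last NP18 array was apart from the rest. MCM6 measured 1.92, 1.13, 1.38 and 1.5 array medians in the NP15 arrays, 1.74, 2.03 and 1.64 in P15, 1.56, 1.7, 1.58 and 2.81 in NP18 and 1.19, 1.78, 1.91 and 1.72 in P18. It passed in no comparison, with a difference of -0.19 (SE 0.24, adjusted p = 0.671) between P18 and NP18. MCM7 was steady over the groups. Signal of MCM7 was 25.7, 28.8, 27.2 and 40.0 array medians in the NP15 arrays, 23.3, 25 and 21.6 in P15, 26.2, 26.3, 25.2 and 30.2 in NP18 and 23.7, 21.2, 27.6 and 29.7 in P18. Its last NP15 array was the highest of the 15, and its differences lay between -0.37 and 0.12. MCM3 was near background, with 0.0325, 0.0254, 0.0711 and 0.0286 array medians in the NP15 arrays, 0.0265, 0.0704 and 0.0369 in P15, 0.0225, 0.0436, 0.0274 and 0.0278 in NP18 and 0.0384, 0.0538, 0.0554 and 0.0315 in P18, and was well above background in no day 18 array, so that its level there is only bounded. MCM8, an MCM family helicase of DNA repair, had 0.394, 0.298, 0.196 and 0.331 array medians in NP18 and 0.439, 0.453, 0.519 and 0.459 in P18, without overlap, but the difference of 0.66 (SE 0.24, adjusted p = 0.108) did not pass.

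The clamp loader had 3 subunits among the members, and RFC5 changed. The RFC5 signal was 0.259, 0.268, 0.238 and 0.238 array medians in the NP15 arrays, 0.12, 0.0942 and 0.118 in P15, 0.0822, 0.113, 0.11 and 0.159 in NP18 and 0.114, 0.0953, 0.0424 and 0.0814 in P18. All NP15 arrays lay above all others, and in P18 no array was well above background. RFC5 was lower in NP18 than in NP15 (log2 difference of -1.15, SE 0.28, adjusted p = 0.0207, or 2.22-fold lower), and this call was lost without the second NP15 array (adjusted p = 0.0523) or, through the fold limit, without the first NP18 array. In P15, its difference from NP15 was -1.19 (SE 0.30, adjusted p = 0.0861). RFC4 had differences from -0.23 to 0.19 over the 4 comparisons and RFC3 from -0.28 to 0.79, and neither passed. The last NP18 array was at 57.0 for RFC3, against 19.6 to 23.8 in the other 3.

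RRM1, the large subunit of ribonucleotide reductase, was the replication member that was higher in P18 than in P15. For RRM1, it was 52.1, 26.3, 40.4 and 29.2 array medians in the NP15 arrays, 25.8, 24.5 and 27.5 in P15, 19.7, 39.3, 29.5 and 42 in NP18 and 39, 58.1, 51.7 and 67.4 in P18. The P18 arrays lay above all P15 arrays and overlapped NP18 and NP15. The difference from P15 was 1.03 (SE 0.30, adjusted p = 0.0332), or 2.04-fold, just over the fold limit, and the call was lost on leaving out any of 6 arrays and under each of the other scalings. The difference from NP18 was 0.76 (SE 0.28, adjusted p = 0.118). CDC7, the kinase that fires replication origins, had differences from 0.06 to 0.30, and CDT1, which loads the helicase, was well above background in 1 of 4 arrays of each day 18 group. Neither passed.

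**Figure D3:**
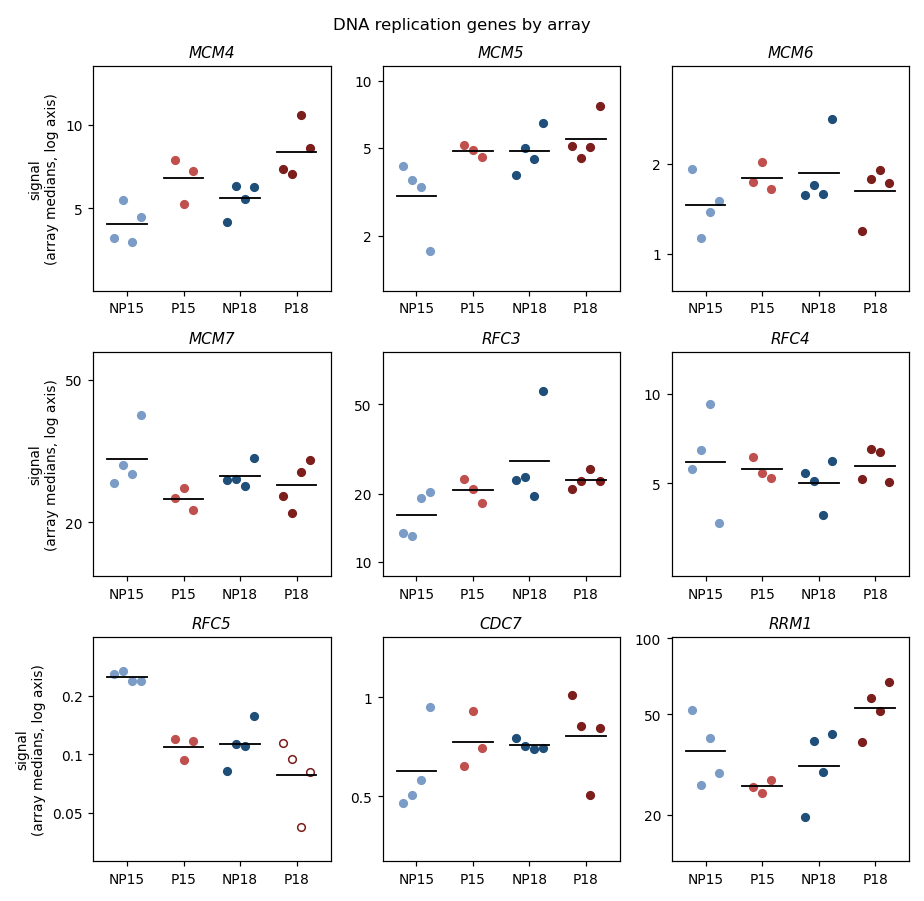
Signal of 9 DNA replication genes in each array, in array medians on a log axis, by group, with open points for arrays not well above background and a line at the group mean of log2 values. RFC5 lies at 0.238 to 0.268 in NP15 and at 0.159 or less elsewhere, and RRM1 at 39.0 to 67.4 in P18 against 24.5 to 27.5 in P15.

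The classes were also read by array (the map of replication and mitosis probes). The median over the mitosis probes of the log2 signal minus its mean over the 15 arrays was 0.13, 0.31, 0.34 and 0.42 in P18, -0.54, -0.34 and -0.22 in P15, -0.02, -0.27, -0.26 and 0.45 in NP18 and 0.16, -0.20, -0.30 and -0.12 in NP15. Every P18 array was above every P15 array, and the last NP18 array was the highest of all 15. For the replication probes, the range was 0.09 to 0.20 in P18, -0.06 to -0.04 in P15, -0.17 to 0.21 in NP18 and -0.30 to -0.07 in NP15. Here too every P18 array was above every P15 array, and so it was for all probes tested, at -0.0097 to 0.15 in P18 and -0.081 to -0.021 in P15. The lowest P18 and the highest P15 array lay 0.35 apart for mitosis, 0.13 for replication and 0.012 for all probes.

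**Figure D4:**
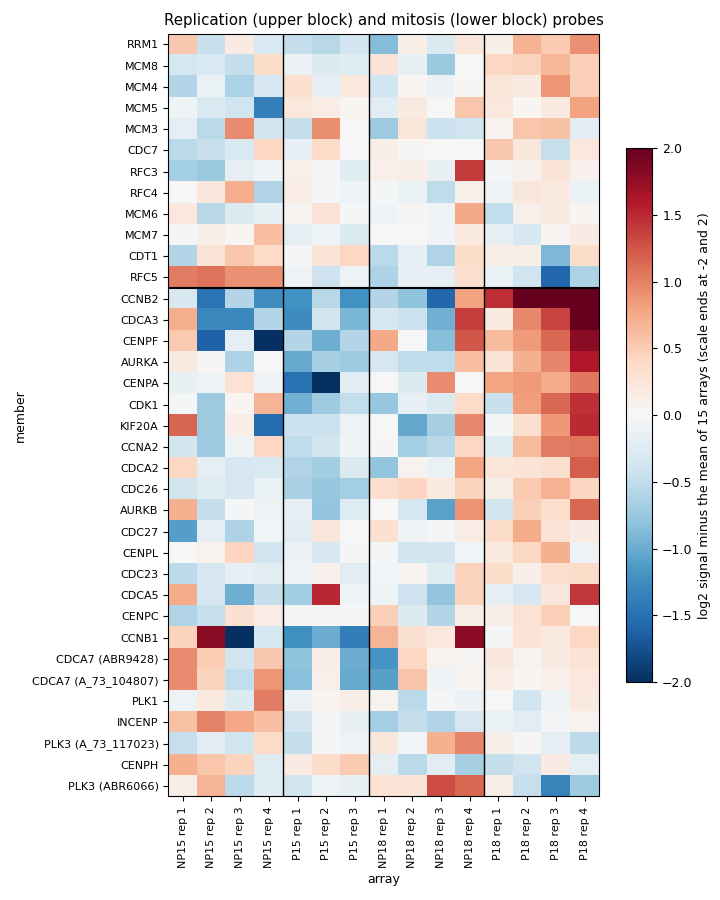
Log2 signal of each replication probe (upper block) and mitosis probe (lower block) minus its mean over the 15 arrays, with arrays in columns by group and probes ordered by their P18 mean. Red runs across the 4 P18 columns for CCNB2, CDCA3, CENPF, AURKA and CENPA, and across all but the first for CDK1, and the last NP18 column shows red for many mitosis probes, with a class median of 0.45.

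In G1, CCND3 was the member with the most calls. CCND3 measured 31.9, 40.8, 29.2 and 48.7 array medians in the NP15 arrays, 23.7, 27.8 and 26.5 in P15, 22.6, 25, 17.9 and 14.2 in NP18 and 62, 55.9, 59.1 and 38.1 in P18. CCND3 is a D-type cyclin that binds CDK4 and CDK6. Its P18 arrays lay above all NP18 and P15 arrays and overlapped NP15. It was higher in P18 than in NP18 (log2 difference of 1.44, SE 0.24, adjusted p = 0.00264, or 2.71-fold), which held on leaving out any 1 array, and than in P15 (log2 difference of 1.03, SE 0.26, adjusted p = 0.0174), which did not hold without any of 5 arrays. Between P15 and NP15, the difference was -0.51 (SE 0.26, adjusted p = 0.375), and the pregnancy effect differed between the days (log2 difference of 1.95, SE 0.35, adjusted p = 0.0142). The first P18 array, with a trophoblast sum of 6.68, had the highest CCND3 signal (62.0), and the last, with a sum of 606, the lowest of the 4 (38.1). TKDP4 was above all arrays of the other groups in that first array too, and the part of trophoblast in the CCND3 signal was not tested.

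The other D-type cyclins passed in no comparison. CCND2 had 0.354, 0.482, 0.586 and 0.403 array medians in the NP15 arrays, 0.478, 0.501 and 1.01 in P15, 0.42, 0.335, 0.583 and 0.183 in NP18 and 0.42, 0.327, 0.235 and 0.20 in P18. Its highest array was the last of P15, and the P18 arrays were all below the P15 arrays, but the difference of -1.14 (SE 0.39, adjusted p = 0.0597) did not pass. CCND1 was dim, with 0.0827, 0.11, 0.0863 and 0.111 array medians in the NP15 arrays, 0.0929, 0.0799 and 0.0672 in P15, 0.0258, 0.0543, 0.0703 and 0.0984 in NP18 and 0.0671, 0.0479, 0.0367 and 0.0723 in P18. It was well above background in every day 15 array, in 1 NP18 array and in no P18 array. CCNE2, an E-type cyclin, had 0.419, 0.425, 0.83 and 1.25 array medians in the NP15 arrays, 1.1, 0.811 and 0.847 in P15, 0.897, 0.187, 0.248 and 0.319 in NP18 and 0.548, 0.737, 0.602 and 0.548 in P18. Its lowest arrays were the last 3 of NP18, while the first NP18 array was as high as those of P15, and its difference between P18 and NP18 was 0.83 (SE 0.44, adjusted p = 0.261).

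CDKN2B, the INK4 inhibitor p15, was lower in P18 than in NP18. Signal of CDKN2B was 0.632, 0.636, 0.176 and 1.97 array medians in the NP15 arrays, 0.18, 0.296 and 0.231 in P15, 0.221, 7.01, 4.18 and 4.05 in NP18 and 0.215, 0.164, 0.26 and 0.195 in P18. In 3 of the 4 NP18 arrays it was above every other array, but the first NP18 array was as low as the pregnant groups, so the groups overlapped. The difference was -3.46 (SE 0.88, adjusted p = 0.0306), or 11-fold lower, and without the first NP18 array it was -4.58 (adjusted p = 0.000399). The call was lost on leaving out any of the 7 other day 18 arrays, with an adjusted p of up to 0.0908. All pregnant arrays of both days lay between 0.164 and 0.296.

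CDKN2D, the INK4 inhibitor p19, was the 1 member that passed between P15 and NP15. The CDKN2D signal was 0.471, 0.372, 0.425 and 0.371 array medians in the NP15 arrays, 1.14, 0.693 and 1.18 in P15, 0.802, 0.84, 0.696 and 0.558 in NP18 and 0.798, 1.05, 1.41 and 0.831 in P18. All arrays of the other groups lay above all NP15 arrays. It was higher in P15 than in NP15 (log2 difference of 1.26, SE 0.26, adjusted p = 0.039, or 2.4-fold). The call was lost on leaving out any of 11 arrays, with an adjusted p of up to 0.22. Between NP18 and NP15, its difference was 0.81 (SE 0.24, adjusted p = 0.0441), under 2-fold. CDKN1C, a KIP inhibitor, had 8.39, 11.2, 15.7 and 4.38 array medians in the NP15 arrays, 17.3, 12 and 14.5 in P15, 17.9, 5.48, 4.06 and 8.82 in NP18 and 7.18, 8.47, 7.45 and 10.9 in P18. Its groups overlapped, and it passed in no comparison. CDK2 and CDK4 passed in none either, with differences of -0.04 and -0.42 between P18 and NP18.

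**Figure D5:**
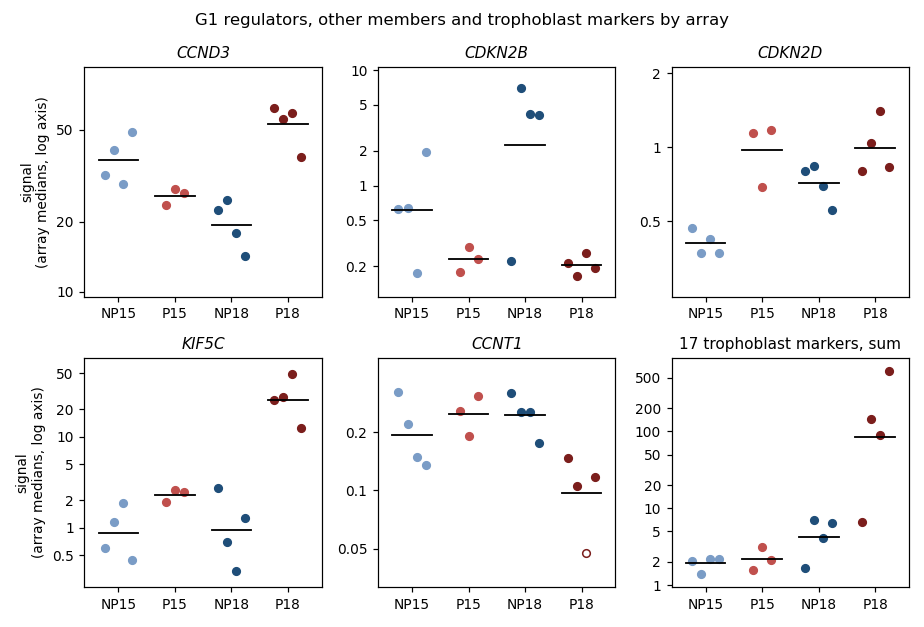
Signal of CCND3, CDKN2B, CDKN2D, KIF5C and CCNT1 and the summed signal of 17 trophoblast markers in each array, in array medians on a log axis, by group, with open points for arrays not well above background and a line at the group mean of log2 values. CCND3 and KIF5C lie above all NP18 and P15 points in all 4 P18 arrays. The trophoblast sum is 6.68 in the first P18 array and 89.2 to 606 in the rest, and the part of trophoblast in the other panels was not tested.

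Among the cyclins of transcription, CCNT1, the cyclin of the elongation factor P-TEFb, was lower in P18. For CCNT1, it was 0.322, 0.22, 0.149 and 0.135 array medians in the NP15 arrays, 0.258, 0.19 and 0.307 in P15, 0.319, 0.253, 0.252 and 0.176 in NP18 and 0.148, 0.105, 0.0475 and 0.117 in P18. All P18 arrays lay below all NP18 and P15 arrays, and the third was not well above background. The difference was -1.34 (SE 0.36, adjusted p = 0.0371) against NP18 and -1.36 (SE 0.39, adjusted p = 0.0293) against P15, and the calls were lost on leaving out any of 7 and 5 arrays. CDK9, its partner kinase, had differences of 0.08 and 0.48 and did not pass.

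Of the kinesins outside mitosis, KIF5C, a motor of cargo transport along microtubules, had the largest change of all members. KIF5C measured 0.604, 1.14, 1.87 and 0.446 array medians in the NP15 arrays, 1.91, 2.6 and 2.49 in P15, 2.71, 0.694, 0.333 and 1.27 in NP18 and 25.4, 27.7, 49.2 and 12.5 in P18. Every P18 array lay above every other array. KIF5C was higher in P18 than in NP18 (log2 difference of 4.76, SE 0.59, adjusted p = 0.000252, or 27.1-fold) and than in P15 (log2 difference of 3.47, SE 0.64, adjusted p = 0.00422, or 11.1-fold). Both calls held on leaving out any 1 array. The first P18 array, with the trophoblast sum of 6.68 but TKDP4 above all other groups, was at 25.4. The last, with the sum of 606, was at 12.5, the lowest of the 4. Whether trophoblast had a part in the KIF5C signal was not tested.

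KIF5A, its relative, was near background. Signal of KIF5A was 0.048, 0.0483, 0.0542 and 0.043 array medians in the NP15 arrays, 0.0415, 0.0354 and 0.0376 in P15, 0.0384, 0.0602, 0.113 and 0.14 in NP18 and 0.103, 0.155, 0.218 and 0.157 in P18. It was well above background in 2 of 3 P15 arrays and 3 of 4 P18 arrays, and it was higher in P18 than in P15 (log2 difference of 2.0, SE 0.37, adjusted p = 0.00427). Part of this difference rests on dim spots, whose floor lay higher in P18, as given for CENPA. KIF3C was lower in P18 than in P15. The KIF3C signal was 0.40, 0.419, 0.407 and 0.304 array medians in the NP15 arrays, 0.257, 0.258 and 0.39 in P15, 0.307, 0.172, 0.251 and 0.236 in NP18 and 0.217, 0.134, 0.0764 and 0.169 in P18. The P18 arrays lay below the P15 arrays, and the difference was -1.08 (SE 0.32, adjusted p = 0.0342), a call lost on leaving out any of 5 arrays. The remaining 9 kinesins of this class passed in no comparison.

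Among the other text matches, GAK, a kinase that uncoats clathrin vesicles, was lower in NP18 than in NP15. For GAK, it was 1.36, 1.56, 1.68 and 0.955 array medians in the NP15 arrays, 0.72, 0.867 and 0.982 in P15, 0.537, 0.533, 0.588 and 1.0 in NP18 and 0.491, 0.572, 0.578 and 0.632 in P18. The last NP18 array lay inside the NP15 range and the other 3 below it. The difference was -1.08 (SE 0.24, adjusted p = 0.0141), and without the third NP15 array or the first or second NP18 array it fell under 2-fold. MRRF, the mitochondrial ribosome recycling factor, whose word 'recycling' holds the letters of cyclin, passed between P18 and NP18 (adjusted p = 0.00439), but it was well above background in no day 18 array, so no fold is given. None of the other 16 passed in any comparison.

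Genes of the same processes whose names the text rule did not match were read beside the members. Of 74 such genes listed, 32 had a probe and 31 were tested. Between P18 and P15, 8 of the 31 passed as higher and none as lower, with a median of 0.64, and 23 had a higher value. That is 25.8% passed as higher and 74.2% with a higher value, beside 7.58 and 56.9% of all probes with a median of 0.12. The 8 were NUSAP1 and PRC1, which bind spindle microtubules, ECT2 of cytokinesis, ASPM of the spindle pole, NCAPH of condensin, CKS1B, a CDK partner, UHRF1 of maintenance methylation and CHEK2, a checkpoint kinase, with differences from 1.02 (CHEK2) to 2.37 (UHRF1). NUSAP1 was at 0.324 to 0.678 array medians in P15 and 1.10 to 2.43 in P18 (log2 difference of 1.91, SE 0.40, adjusted p = 0.00821), and NCAPH at 0.142 to 0.289 and 0.404 to 0.591 (log2 difference of 1.30, SE 0.30, adjusted p = 0.012). Among genes of DNA synthesis on this list, TYMS had a difference of -0.70 there and POLD1 of -0.48, and neither passed.

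Between P18 and NP18, ECT2 (1.30), HMMR (1.02), a spindle protein, and GADD45B (1.48) passed as higher and GADD45G as lower (adjusted p = 0.0257), which is 3 and 1 of 31 beside 3.65 and 2.1% of all probes. Both GADD45 genes respond to stress and growth arrest. GADD45G was at 0.240 to 11.4 array medians in NP18 and 0.0367 to 0.154 in P18, where 1 of 4 arrays was well above background, so no fold is given. None of the 31 passed between P15 and NP15. GMNN, which blocks relicensing of origins, passed between NP18 and NP15 as higher (1.49).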

How the data were processed

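RNA of the caruncular endometrium of 15 cows was measured with 1 one-color array per cow. The deposited scanner tables give an intensity per spot on a linear scale, from which the authors' software, Agilent Feature Extraction 9.5, had removed a fitted background, with nothing scaled between arrays. The authors also deposited log2 values of the same arrays, which follow the 75th percentile of each array, and they were used as an alternative. Each intensity was divided by its array's median over 15208 probes other than controls, as in the study's methods, and log2 was taken. Control spots and outlier-flagged spots were left out, but not saturated ones. The 13164 probes well above background in 3 or more arrays were fitted with limma 3.58.1 in R 4.3.3, with 1 mean per group and Benjamini-Hochberg adjustment over all of them. The procedure was tested on simulated data. Gene names came from the files or RefSeq's table for ARS-UCD2.0 for 70 of the 91 kept probes and from the probe description for 21. Members, classes and gene lists were chosen with earlier results of these data known, so no set test was run and medians over members are descriptions. Values in every array are given for each member that passed the test in any comparison and for a list of central cell cycle genes, 34 probes in all. Other genes and members were named as examples. All per-sample columns of the log2 table had a sample. Motifs in promoters were not analysed here. Some genes are not reported here. The alternatives were other scalings, normexp (offset 50) on raw intensities, other filters, array weights, the compared groups alone, the methods' t-test, a block for slide, scan day or replicate number, no limit on fold, and leaving out each array. Counts by class were run under them after the data were seen. The number of arrays limits the precision. Python 3.11.15 with pandas 2.3.3, numpy 2.4.6, scipy 1.17.1 and matplotlib 3.10.9 gave the summaries and plots.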

Additional observations from a re-analysis of the deposited data

Results flagged for a closer look

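In 5 of 102 groups of 4 arrays tested for Dixon's gap, 1 array stood far from the other 3, and chance alone marks about 1 in 20 groups. The last NP18 array was high for AURKA (0.706 array medians, against 0.322 to 0.365 in the other 3), for GAK (1.00, against 0.533 to 0.588) and for MCM6 (2.81, against 1.56 to 1.70). The first NP18 array was low for CDKN2B (0.221, against 4.05 to 7.01), and the last NP15 array was low for KIF3C (0.304, against 0.400 to 0.419).

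The pregnancy effect differed between day 18 and day 15 for 3 members by limma's test of the difference. It was larger on day 18 by 2.83 on the log2 scale for CCNB2 (adjusted p = 0.0330), by 1.95 for CCND3 (adjusted p = 0.0142) and by 1.37 for the INCENP probe (adjusted p = 0.0143), whose strand was not tested. None of the 3 held once the scan day was a random block, where 0 of all 13164 probes passed.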

How the results depend on the processing

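No call on a member changed its direction under any alternative. The numbers of members that passed, in the order P15 against NP15, P18 against NP18, the interaction, NP18 against NP15 and P18 against P15, were 1, 7, 3, 3 and 13. Of all 13164 probes, 105, 757, 358, 942 and 1566 passed. Once the scan day was a random block, the members that passed were 0, 0, 0, 1 and 0, beside 0, 49, 0, 54 and 0 of all probes. Each group but NP15 has 1 scan day, and the cause was not tested. With slide as the random block, 0 passed for P15 against NP15, and with the replicate block likewise 0, beside 52 and 8 of all probes. The replicate numbers did not pair the cows, because same-numbered arrays had correlations of their deviations from -0.26 to 0.30. Where counts moved by over 1.5 times otherwise, they were, with array weights, 10, 11, 12 and 7 in the first 4 comparisons. Of all probes, 853, 1344, 1332 and 1529 passed there, so the counts over the whole array rose as well. With quantile normalization, 2 and 5 passed for P15 against NP15 and the interaction, beside 165 and 475 of all probes. With normexp, 4, 5 and 8 passed for P18 against NP18, the interaction and P18 against P15, beside 523, 399 and 917. The 75th percentile and the authors' log2 values each gave 6 for NP18 against NP15, beside 1001 and 999 of all probes. Only probes well above background in all 15 arrays gave 5 for the interaction, beside 361 of all 9572 such probes. The 2 groups alone gave 0, 4 and 1 for P15 against NP15, P18 against NP18 and NP18 against NP15, beside 2, 477 and 157 of all probes. The methods' t-test after adjustment gave 0, 1 and 1, beside 0, 188 and 137. Unadjusted, it gave 2 for P15 against NP15, beside 433 of all probes. No fold limit gave 2 there and 12 for NP18 against NP15. Leaving out each array gave 0 to 2, 4 to 8, 0 to 6, 2 to 6 and 6 to 17 in the order above.

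Of 24 mitosis probes, 7 passed as higher in P18 than in P15, and 4 with the 75th percentile or the authors' log2 values, 0 with the scan day, and 4 to 8 on leaving out each array. Of the replication probes, 1 passed there (RRM1), and none (0) did with the 75th percentile, quantile normalization, normexp, the authors' log2 values, the slide, the scan day or the replicate block, and 0 to 1 passed on leaving out each array. The mitosis median between P18 and P15 (0.77) was 0.47 with the 75th percentile, 0.61 with quantile normalization, 0.48 with normexp and 0.47 with the authors' log2 values. The replication median there (0.11) was -0.19, -0.12, -0.068 and -0.19 under these, which shift all probes, and 0.15 with probes well above background in all 15 arrays. Between P15 and NP15 (0.13) it was 0.23, 0.04, 0.016, 0.23 and 0.30 under the same 5 settings. Between NP18 and NP15 (-0.06) it was 0.265 with the filter on all 15 arrays, 0.11 with array weights, -0.18 with the 75th percentile or the authors' log2 values and 0.045 with quantile normalization. The mitosis median between P18 and NP18 (0.47) was 0.26 with normexp, that between P15 and NP15 (-0.21) was -0.11 with the 75th percentile or the authors' log2 values, and that between NP18 and NP15 (0.07) was -0.05 with either and 0.16 with quantile normalization. On leaving out each array, the replication medians ranged from 0.028 to 0.23, 0.047 to 0.30, -0.11 to 0.10 and 0.042 to 0.17 for P15 against NP15, P18 against NP18, NP18 against NP15 and P18 against P15, and the mitosis medians from -0.38 to -0.13, 0.35 to 0.54, -0.17 to 0.19 and 0.69 to 0.93.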
